A study of Mus musculus with 6 samples.

Results

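The 10 genes described here encode feedback regulators and targets of the ERK pathway: the phosphatases Dusp1, Dusp5 and Dusp6, the Sprouty inhibitors Spry1, Spry2 and Spry4, the Spred inhibitors Spred1 and Spred2, and the ETS transcription factors Etv4 and Etv5. They were chosen by gene symbol, with no measured value in the rule, although earlier results of these data were known. All 10 were among the 24421 genes of the table. RNA came from mCherry-positive cells sorted at postnatal day 21 from the cortex of CD51-Flp mice. The 3 CNO libraries came from animals given clozapine-N-oxide, the agonist of the designer receptor hM3D, 2 times per day from postnatal day 7 to day 21, and the 3 saline libraries from animals given saline on the same schedule. Both groups carried the vector AAV-GFAP-FSF-hM3D-mCherry, in which hM3D, a Gq-coupled receptor, and the red fluorophore mCherry depend on Flp recombinase and are driven by the GFAP promoter. CD51 is the alpha V integrin, and its gene drove the recombinase. No CNO group without the receptor is among these libraries, so an effect of CNO apart from hM3D cannot be told apart from one through it. Libraries were made from 10 ng of total RNA, and the labels do not say whether they came from single or pooled animals.

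When a growth factor receptor or a Gq-coupled receptor is engaged, Ras, Raf and MEK pass the signal to the kinases ERK1 and ERK2, which enter the nucleus and switch on early genes. Among these early genes are inhibitors of the same pathway. Dusp phosphatases remove the activating phosphates from ERK, while Sprouty and Spred proteins act upstream on Ras and Raf, so the cell limits the length and strength of its own response. Transcripts of this kind are widely used as a readout of ERK activity, and in astrocytes and oligodendrocyte precursors several of them follow FGF and other growth factor signals.

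Library sizes ran from 3908076 to 19224186 reads in CNO and from 12010901 to 19052161 in saline, with CNO 1 the smallest. Values are normalized counts, each read standing for 4.23 of them in CNO 1, the shallowest library, and for 0.503 to 0.970 in the rest. Summed over all genes, normalized counts were larger in every CNO library than in every saline library. A gene with the same share of reads in both groups thus has a higher normalized count in CNO. A count of 0 reads allows up to 3 reads for counting error only, which is 12.7 normalized counts in CNO 1 and between 1.51 and 2.91 elsewhere. Genes listed at 0 were more frequent in the CNO libraries: of the 6397 genes with a mean from 100 to 1000, 22.1%, 2.08% and 7.24% had no read in CNO 1, 2 and 3, against 0.391% to 0.657% in the saline libraries. Astrocyte markers were present in every library, with none of the 12 at 0 throughout a group, and took 1.02% to 3.36% of reads in CNO and 1.90% to 2.81% in saline. The 12 oligodendrocyte markers took more, 11.2% to 24.5% in CNO and 5.33% to 7.87% in saline (exact permutation p = 0.1, 2-sided, the smallest the design allows; adjusted p = 0.6 over 6 lists). The 12 microglia and macrophage markers took 0.593% to 1.29% in CNO and 1.11% to 1.43% in saline, and the 10 precursor markers 0.156% to 0.185% in CNO and 0.161% to 0.259% in saline, again with no marker at 0 throughout a group. The 10 neuron markers took 0.0823% to 0.108% in CNO and 0.0927% to 0.123% in saline. The 10 endothelial and mural markers took 0.00616% to 0.0406% in CNO and 0.0130% to 0.0351% in saline, with a mean of 0.0227% in both groups. Of these, 1, the mural marker Kcnj8, was at 0 in all CNO libraries. Levels below are therefore those of a mixed sorted sample, in which fewer cells of a type and less RNA per cell cannot be told apart, and the part of each cell type in a result was not tested.

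None of the 10 genes passed the test of CNO against saline. In normalized counts, all CNO values of Spred1 lay above all saline values, and all CNO values of Etv4 lay below all saline values. The other 8 genes overlapped between the groups. Dusp1 and Spred1, the most abundant of the 10, had ratios of means (CNO over saline) of 1.52 and 1.49 on the authors' scaling. Both log2 fold changes turned below 0 with quantile scaling. As shares of all reads of a library, both genes had a lower mean in CNO than in saline and overlapped between the groups. Spred2 and Etv4 had ratios of 0.260 and 0.0878 on the authors' scaling.

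**Figure D1:**
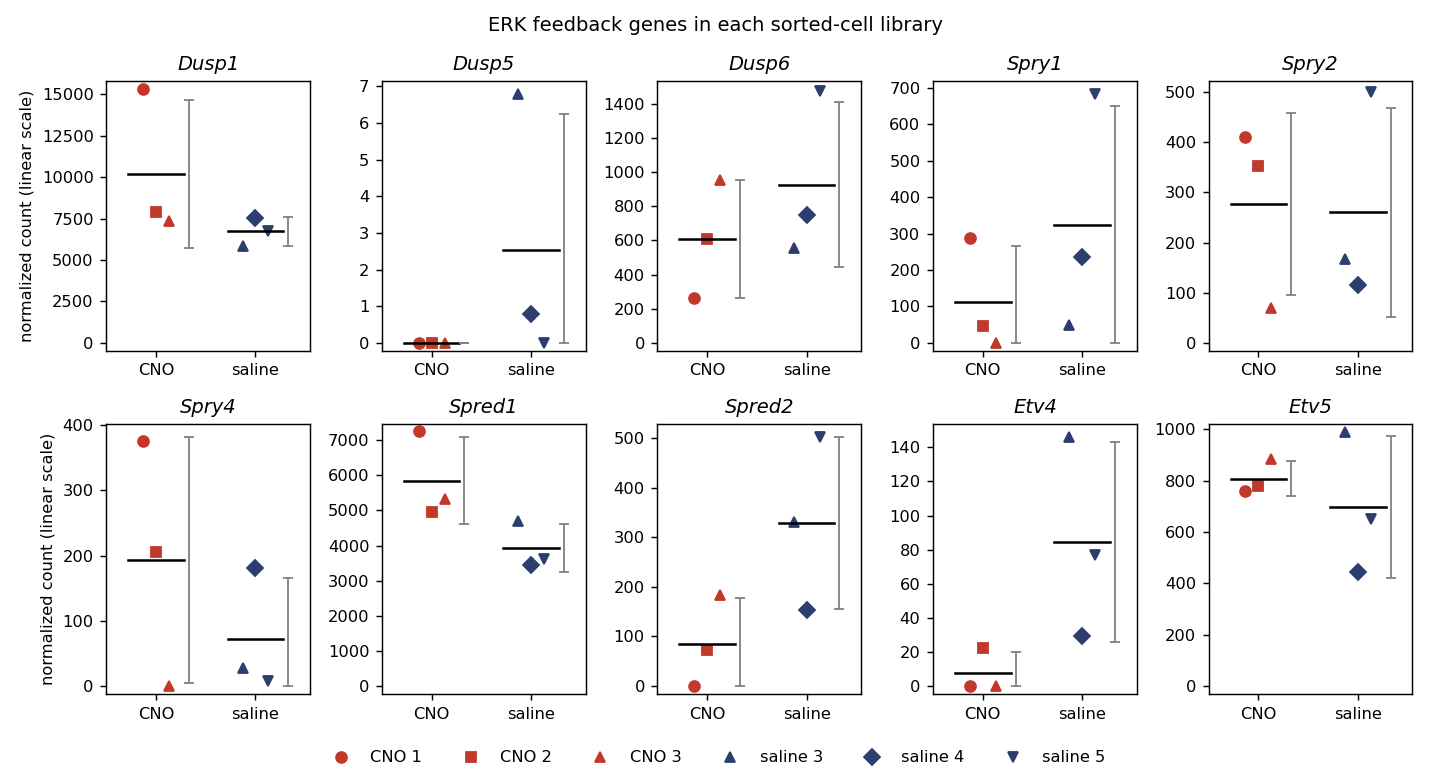
Normalized counts on a linear scale (y axis, own range per panel) of the 10 ERK feedback genes in the 3 CNO and the 3 saline libraries. Points are libraries, black lines are group means and grey bars are 1 SD, drawn no lower than 0. Spred1 runs from 4969 to 7256 in CNO and from 3460.2 to 4713 in saline, and Etv4 from 0 to 22.2 in CNO and from 29.6 to 146 in saline.

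In the test, limma on log2(normalized count + 1) over 13028 genes (mean of 10 or more), 0 of the 9 ERK feedback genes that met this mean had an adjusted p under 0.05, where 0.0154% of all tested genes did. At an unadjusted p under 0.05, 0 were higher and 1, Etv4, was lower, beside 2.28% higher and 7.25% lower among all tested genes. edgeR and DESeq2 on the recovered reads also called none of them, although DESeq2 called 2.15% and edgeR 0% of all tested genes. The share of all tested genes with every CNO library above every saline library was 4.57%, and 12.5% had every CNO library below, so 1 gene of 9 in each direction is not read as a property of these genes. Log2 fold changes were above 0 for 5 genes and below 0 for 4, where 31.7% of all tested genes were above 0, with a median of 0.03, against a median of -0.89 over all tested genes. That overall median depended on level: it was -2.28 for genes with a mean from 10 to 100, -0.82 from 100 to 1000 and 0.35 from 1000. A gene read in every library had a median of -0.09.

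**Figure D2:**
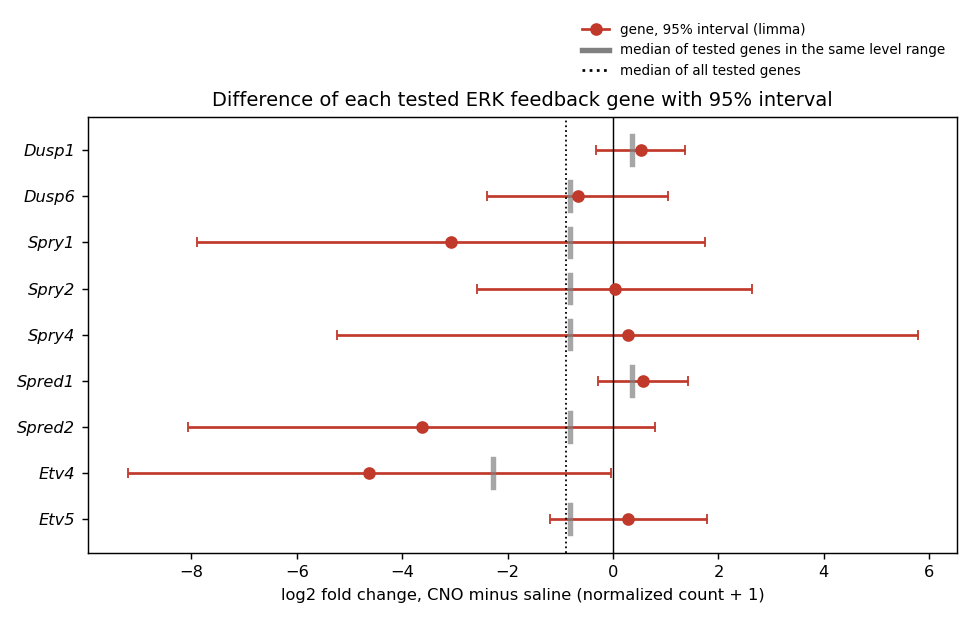
Log2 fold change, CNO minus saline, of the 9 tested ERK feedback genes (points) with the 95% interval from limma. Grey ticks are the median of all tested genes in the same range of mean level, and the dotted line is the median of all tested genes, -0.89. The interval of Etv4 alone does not reach 0, and those of Dusp1 and Spred1 are the narrowest.

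Per kilobase of exon, the 10 genes spanned a wide range of abundance. Dusp1 averaged 3079.5 normalized counts per kilobase in CNO and 2032 in saline, above 99.1% of tested genes by its mean over both groups. Spred1 followed with 862 per kilobase in CNO and 579 in saline. Dusp1 was above Spred1, and Spred1 above Dusp6, in 6 of 6 libraries. Below these the order by overall mean was Dusp6, Etv5, Spry2, Spry1, Spred2, Spry4, Etv4 and Dusp5, and each was above the next in 3 to 5 of the 6 libraries. Neighbours in this part of the order are thus not separated beyond the spread between libraries, apart from Etv4 and Dusp5, which otherwise tied at 0.

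Dusp1, on chromosome 17 from 26505590 to 26562128 (GRCm38, minus strand), encodes a nuclear phosphatase that is itself an immediate early gene and acts on p38, JNK and ERK. Its normalized counts were 15323, 7892 and 7373 in CNO 1, 2 and 3, against 5850.3, 7565 and 6767 in saline 3, 4 and 5. CNO 1 stood well above the other libraries, at 2.08 times the lowest CNO value, while CNO 3 lay below saline 4, so the groups overlapped. The means were 10196 ± 4448 in CNO and 6727 ± 858 in saline (SD, n = 3 each), with a log2 fold change of 0.52 ± 0.38 (SE, 95% interval -0.32 to 1.37, limma adjusted p = 0.645). Without CNO 1 the log2 fold change was 0.19, and with quantile scaling it was -0.19. Dusp1 shares 11 exon bases with Ergic1 on the opposite strand.

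Dusp5, a nuclear phosphatase selective for ERK, lies at the other end of the range. On chromosome 19 from 53529109 to 53542431, it had 0 reads in each CNO library and 12, 1 and 0 reads in saline 3, 4 and 5. The saline mean of 2.53 normalized counts lies below the 5.94 that 3 reads per library would average in CNO, so no fold is given and the gene was not tested. An antisense gene, not a row of the table, shares 22.1% of its exon bases. Dusp1 and Dusp5 are thus the most and the least abundant of the 10, and their promoter stretches are shown because both hold elements known from stimulus-responsive genes.

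The sequences are bases 250 to 51 before the RefSeq start, 5′ to 3′ along the gene, from RefSeq on GRCm38.p6. Capitals mark the cAMP response element (CRE) TGACGTCA or its core TGACG on either strand, which overlap each other, and the CArG box bound by serum response factor. The Dusp1 stretch is chr17:26508523-26508722 on the minus strand, and the Dusp5 stretch is chr19:53528895-53529094 on the plus strand. The Dusp1 stretch lies within the GENCODE span of Dusp1 given above, which on this strand begins further upstream than the RefSeq start.
Dusp1: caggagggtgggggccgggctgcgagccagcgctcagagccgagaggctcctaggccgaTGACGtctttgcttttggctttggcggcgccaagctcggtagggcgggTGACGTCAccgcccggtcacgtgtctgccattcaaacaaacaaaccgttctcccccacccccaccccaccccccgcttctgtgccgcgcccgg
Dusp5: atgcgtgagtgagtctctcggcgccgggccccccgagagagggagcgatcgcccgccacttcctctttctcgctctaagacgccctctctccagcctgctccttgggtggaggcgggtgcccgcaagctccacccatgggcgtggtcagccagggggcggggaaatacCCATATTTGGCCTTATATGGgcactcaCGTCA
The Dusp1 stretch holds the whole CRE, 143 bases before the start, and a further TGACG 191 bases before it. The Dusp5 stretch holds CArG boxes 82 and 72 bases before the start and TGACG on the opposite strand. All of the Dusp5 stretch is also annotated as exon of the antisense gene mentioned above. Of 32851 promoter stretches of this length, 0.828% held the whole CRE, 12.7% held TGACG and 1.16% held a CArG box on either strand. Among the 8 genes with a promoter in the table, the whole CRE was found in 1, TGACG in 2, a CArG box in 1 and the ETS letters CGGAAGT, present in 2.76% of all stretches, in 0. A match is a description of letters and not a bound site.

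Dusp6, a cytoplasmic phosphatase selective for ERK and a common readout of FGF signalling, lies on chromosome 10 from 99263231 to 99267489. It had 262, 609.7 and 956 normalized counts in CNO 1, 2 and 3, against 554, 749 and 1473 in saline 3, 4 and 5. CNO 1 was the lowest of the 6 libraries and saline 5 the highest, with the rest intermixed. The means were 609.1 ± 347 in CNO and 926 ± 484 in saline, and the log2 fold change was -0.67 ± 0.78 (limma adjusted p = 0.749). It was -0.15 without CNO 1, -0.27 without saline 5 and -1.08 without CNO 3. CNO 1 thus held the highest Dusp1 and the lowest Dusp6 value of the series. Dusp6 made up 1.68%, 7.17% and 11.5% of the summed Dusp1 and Dusp6 reads in CNO 1, 2 and 3, against 8.66%, 9.01% and 17.9% in saline 3, 4 and 5 (exact permutation p = 0.4, 2-sided).

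The Sprouty genes varied more between libraries of 1 group than between the groups. Spry1, on chromosome 3 from 37639947 to 37644598, encodes an inhibitor of receptor tyrosine kinase signalling to Ras. It had 287, 46.6 and 0 normalized counts in CNO 1, 2 and 3, against 49.3, 235 and 684 in saline 3, 4 and 5. The highest value was 13.9 times the lowest within the saline group alone. The log2 fold change of -3.07 ± 2.20 (limma adjusted p = 0.640) had an interval from -7.89 to 1.75, and it was -0.78 without CNO 3, the library listed at 0, and -4.87 without CNO 1. On the recovered reads it was -1.77 in edgeR and -1.54 in DESeq2. An unclassified antisense gene, not a row of the table, shares 24.4% of the Spry1 exon bases, and the sources used here do not say how strand was handled.

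Spry2, which acts on the same step and is the Sprouty gene read in every library, lies on chromosome 14 from 105891947 to 105896819. Its normalized counts were 409.9, 352 and 69.85 in CNO 1, 2 and 3, against 167, 114 and 499.8 in saline 3, 4 and 5. Both the lowest and the second highest value were CNO libraries. The means were nearly equal, 277 ± 182 in CNO and 260.3 ± 209 in saline, with a log2 fold change of 0.03 ± 1.19 (interval -2.57 to 2.63, limma adjusted p = 0.995, and -0.095 with TMM scaling), so differences of up to about 6-fold either way lie within the interval (fold 0.168 to 6.19).

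Spry4, another inhibitor of the family, lies on chromosome 18 from 38586247 to 38601415. It had 376, 205 and 0 normalized counts in CNO 1, 2 and 3, against 27.2, 180.1 and 7.55 in saline 3, 4 and 5. CNO 1 and 2 were the highest of the 6 libraries and CNO 3 the lowest, so the CNO group enclosed the saline group. The log2 fold change was 0.28 ± 2.51 (limma adjusted p = 0.973) and ran from -1.29 without CNO 1 to 2.98 without CNO 3. CNO 3 stood apart for the whole family: its 72 Sprouty reads were all Spry2, while Spry1 and Spry4, at 0 reads each, could be up to 4.17% of them. In CNO 1, by contrast, Spry1, Spry2 and Spry4 made up 26.8%, 38.2% and 35.0% of 254 reads. In saline 5, Spry1 held 57.4% and Spry4 0.633% of 2368 reads.

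**Figure D3:**
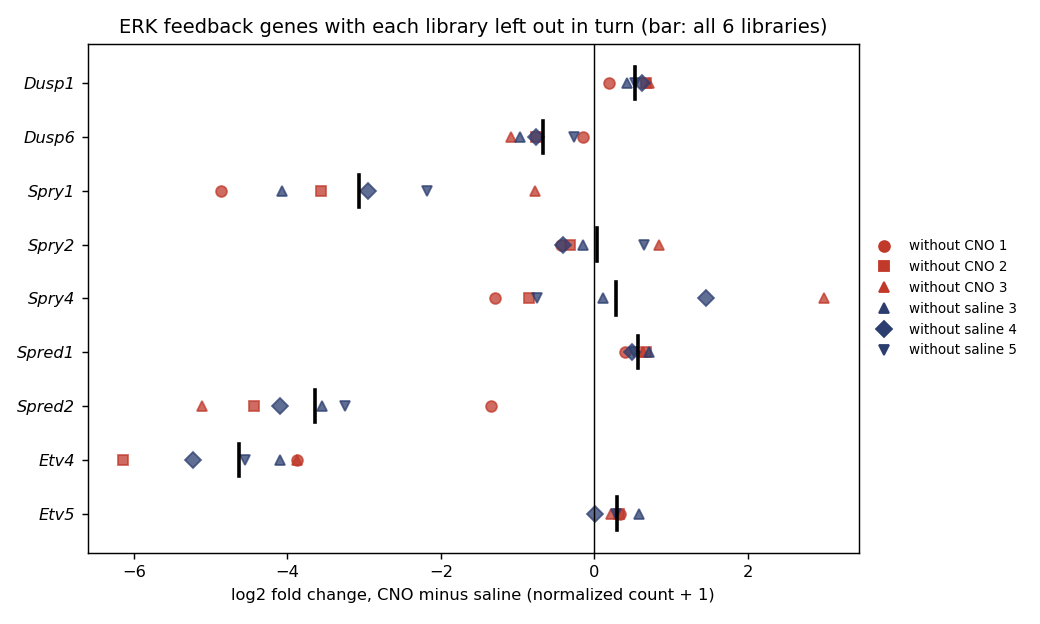
Log2 fold change, CNO minus saline, of the 9 tested ERK feedback genes with each library left out in turn (points, coloured and shaped by the library left out) beside the value with all 6 libraries (black bars). On the authors' scaling the points of Dusp1 run from 0.19, without CNO 1, to 0.72 around a bar at 0.52. Those of Spred1 run from 0.40 to 0.71 around a bar at 0.57, and those of Spry4 from -1.29 to 2.98.

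The Spred genes differed from each other in level. Spred1 and Spred2 encode membrane-bound inhibitors that recruit neurofibromin, a Ras GTPase-activating protein, and loss of human SPRED1 causes Legius syndrome. Spred1, on chromosome 2 from 117121374 to 117182279, had 7256, 4969 and 5325 normalized counts in CNO 1, 2 and 3, against 4713, 3460.2 and 3604 in saline 3, 4 and 5. On this scaling every CNO library was above every saline library, with the lowest CNO value just above saline 3. In reads, Spred1 had 1717 of 3908076, 6716 of 19224186 and 5489 of 17102657 in CNO 1, 2 and 3. In saline 3, 4 and 5 it had 8313 of 17389282, 4323 of 12010901 and 7162 of 19052161. As a share of all reads it thus overlapped between the groups, with the lower mean in CNO. The means were 5850.05 ± 1230.5 in CNO and 3926 ± 685 in saline, and the log2 fold change was 0.57 ± 0.39 (interval -0.29 to 1.43, limma adjusted p = 0.630). Genes of its level had a median of 0.35, and the direction turned with quantile scaling, where Spred1 stood at -0.13. Mouse libraries of both groups fell into levels of Xist above and below 10000 normalized counts, Xist being a transcript of the inactive X chromosome. The high class held 2 CNO libraries and 1 saline library, and the low class 1 CNO library and 2 saline libraries. As every normalized Spred1 count in CNO lay above every one in saline, CNO is higher on this scaling within either class by necessity. The classes are therefore no check of the Spred1 difference.

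The promoter stretch of Spred1 is shown as that of the 1 gene with every CNO library above every saline library in normalized counts. It lies 250 to 51 bases before the RefSeq start at chr2:117120821-117121020 on the plus strand (RefSeq, GRCm38.p6). It held none of the letters searched and is therefore printed without capitals.
Spred1: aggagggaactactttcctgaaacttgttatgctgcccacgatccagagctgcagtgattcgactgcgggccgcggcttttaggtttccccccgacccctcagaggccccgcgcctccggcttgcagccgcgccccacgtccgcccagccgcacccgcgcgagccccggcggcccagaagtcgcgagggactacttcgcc

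Spred2, on chromosome 11 from 19924375 to 20024026, was the scarcer of the pair. It had 0, 71.8 and 184 normalized counts in CNO 1, 2 and 3, against 332, 154 and 501 in saline 3, 4 and 5. CNO 3 lay above saline 4, so the groups overlapped. The means were 85.4 ± 92.9 in CNO and 329 ± 174 in saline, with a log2 fold change of -3.63 ± 2.02 (interval -8.06 to 0.79, limma adjusted p = 0.572). Without CNO 1, where no read was found, it was -1.35, and on the recovered reads it was -2.003 in edgeR and -1.93 in DESeq2.

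Etv5 and Etv4 encode ETS factors of the PEA3 group, which are induced by FGF receptors through ERK. Etv5, on chromosome 16 from 22381309 to 22439719, had 761, 778 and 885 normalized counts in CNO 1, 2 and 3, against 991, 443 and 652 in saline 3, 4 and 5. The CNO values lay close together, within the range of the saline values. Their SD on the log2 scale was 0.12 in CNO and 0.58 in saline. Among the 6397 genes with a mean from 100 to 1000 the median SD was 2.34 in CNO and 0.73 in saline, and 0.594% of these genes had a smaller SD in CNO than Etv5. The means were 808 ± 67.3 in CNO and 696 ± 276 in saline, with a log2 fold change of 0.29 ± 0.68 (interval -1.21 to 1.78, limma adjusted p = 0.879, and -0.018 with quantile scaling). It was 0.0034 without saline 4 and 0.58 without saline 3.

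Etv4, on chromosome 11 from 101769742 to 101785371, had 0, 22.2 and 0 normalized counts in CNO 1, 2 and 3, which are 0, 30 and 0 reads. In saline 3, 4 and 5 it had 146, 29.6 and 77.0, which are 258, 37 and 153 reads. Every CNO library was below every saline library, with CNO 2 close to saline 4. The means were 7.40 ± 12.8 in CNO and 84.3 ± 58.7 in saline. The log2 fold change was -4.63 ± 2.09 (limma adjusted p = 0.522), a fitted value that rests on the pseudocount and was -2.67 with a pseudocount of 8. On the recovered reads it was -3.50 in edgeR (unadjusted p = 0.17) and -3.45 in DESeq2 (unadjusted p = 0.11). Genes with a mean from 10 to 100 had a median of -2.28, and 85.6% of them had no read in at least 1 CNO library, against 21.7% in at least 1 saline library.

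Reads of close relatives within a library share its depth and scaling, so the share of 1 gene in its family was also compared, a measure added after the values were seen. Spred2 made up 0%, 1.42% and 3.35% of the Spred1 and Spred2 reads in CNO 1, 2 and 3, against 6.57%, 4.25% and 12.2% in saline 3, 4 and 5. A limit of 3 reads for its 0 of 1717 reads in CNO 1 is a share of 0.175%, and the 2-sided exact 95% interval reaches 0.215%. Etv4 made up 0%, 2.78% and 0% of the Etv4 and Etv5 reads in CNO 1, 2 and 3, against 12.9%, 6.26% and 10.6% in saline 3, 4 and 5. For its 0 of 180 reads in CNO 1 the limit of 3 reads is 1.67% and the exact interval reaches 2.03%, and for its 0 of 912 in CNO 3 these are 0.329% and 0.404%. Neither of these 2 shares overlapped between the groups. The shares of Dusp6, Spry1, Spry2 and Spry4 in their families did (exact permutation p = 0.4, 0.2, 0.5 and 0.8, 2-sided). How often such shares separate among other gene pairs was not tested. Of all tested genes, 12.5% had every CNO library below every saline library. The means were 1.59% ± 1.68 in CNO and 7.68% ± 4.09 in saline for Spred2, and 0.925% ± 1.60 in CNO and 9.89% ± 3.35 in saline for Etv4 (n = 3 each; exact permutation p = 0.1 for each, 2-sided, the smallest the design allows, adjusted p = 0.3 over 6 shares). The difference for Spred2 was -6.09 percentage points and -3.82 without saline 5, and that for Etv4 was -8.97 and between -7.49 and -10.8 with 1 library left out. The lower median fold change of scarce genes, given above, moves with both shares, and its part in them was not tested.

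**Figure D4:**
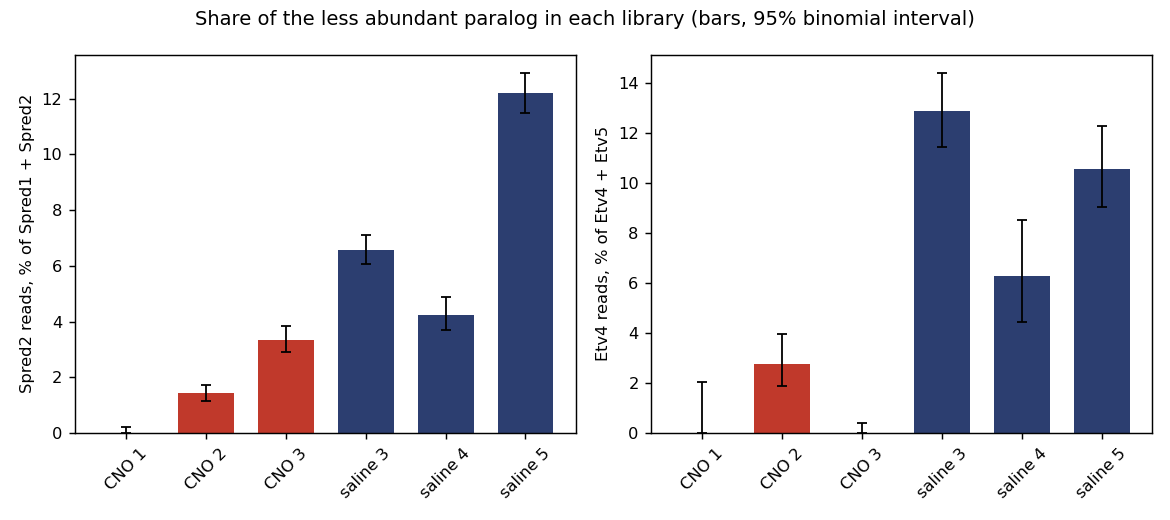
Share of Spred2 in the Spred1 and Spred2 reads (left) and of Etv4 in the Etv4 and Etv5 reads (right), in percent, in each library. Of the 6 shares compared, only those without overlap between the groups are drawn. Bars are the share and black lines the exact 95% binomial interval, which covers counting error only. The 3 CNO bars run up to 3.35% and 2.78% and the 3 saline bars start at 4.25% and 6.26%.

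The other genes of the pathway gave the surroundings of these values. Of 72 such genes in 5 lists, all rows of the table, 68 were tested and 0 passed in limma in either direction. At an unadjusted p under 0.05, 4 of the 68 were higher and 5 lower, where 2.28% of all tested genes were higher and 7.25% lower, and 0 were called by edgeR. DESeq2 called 4 of them, Ptpn11 and Hras as higher and Dusp2 and Plaur as lower, where it called 0.586% of genes higher and 1.56% lower. Their median log2 fold change was -0.20, against -0.89 over all tested genes. Of the 68, 8 had every CNO library above every saline library, where 4.57% of all tested genes did. Another 9 had every CNO library below every saline library, where 12.5% of all tested genes did. Whether these counts differ from the shares among all tested genes was not tested. Most genes named below were picked by the smallest p of their list, which favours genes without overlap.

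Among the 14 receptors, 13 were tested, 8 had a log2 fold change above 0 and the median was 0.12. Egfr, the EGF receptor, had 6267, 4143 and 2131 normalized counts in CNO 1, 2 and 3, against 2679, 1823 and 1053 in saline 3, 4 and 5, an overlap of 1 CNO library (log2 fold change 1.14 ± 0.56, limma adjusted p = 0.550). Pdgfrb, a receptor of mural cells, stood at 1.68 ± 0.79, and Csf1r, the receptor of microglia and macrophages and the most abundant of this list per kilobase, at 0.12 ± 0.37. Erbb2 had 0, 9.62 and 0 in CNO 1, 2 and 3, against 118, 88.8 and 22.6 in saline 3, 4 and 5.

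The core cascade held the largest differences in the higher direction. All 18 of its genes were tested, 10 had a log2 fold change above 0, and the median was 0.24. Ptpn11, which encodes SHP2, a phosphatase that promotes Ras activation, had 4598, 4215 and 3679.7 normalized counts in CNO 1, 2 and 3, against 573, 847 and 1108 in saline 3, 4 and 5. The CNO libraries were close to one another and all above saline, with a ratio of means of 4.94 and a log2 fold change of 2.35 ± 0.51 (limma adjusted p = 0.488, DESeq2 adjusted p = 0.0192). Hras, a Ras protein, had 1247, 349 and 232 in CNO 1, 2 and 3, against 49.9, 20.8 and 44.3 in saline 3, 4 and 5, also without overlap (limma adjusted p = 0.488, DESeq2 adjusted p = 0.00653). Nras stood at 1.15 ± 0.59, and Mapk3, which encodes ERK1 and was the most abundant of this list per kilobase, at 0.54 ± 0.78.

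Of the 12 kinases and factors that ERK acts on, all were tested, 4 had a log2 fold change above 0 and the median was -1.17. Srf, the factor that binds CArG boxes, had 0, 11.8 and 0 normalized counts in CNO 1, 2 and 3, against 107, 49.6 and 114 in saline 3, 4 and 5. Its Ets partner Elk3 had 0, 259.7 and 76.6 in CNO 1, 2 and 3, against 557, 393 and 823 in saline 3, 4 and 5. For both, all CNO values lay below all saline values without a pass in limma (adjusted p = 0.491 and 0.522). Rps6ka2, a kinase of the RSK family, stood at -4.46 ± 2.27, and Mknk1 at 0.48 ± 0.59.

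Among the 18 other negative regulators, 16 were tested, 5 had a log2 fold change above 0 and the median was -0.48. Dusp2, an inducible nuclear phosphatase, had 0, 0.740 and 0 normalized counts in CNO 1, 2 and 3, of which CNO 2 is 1 read, against 221, 47.2 and 64.9 in saline 3, 4 and 5 (limma adjusted p = 0.488, DESeq2 adjusted p = 0.0099). Pea15a, which holds ERK in the cytoplasm, had 7201, 14574 and 14574 in CNO 1, 2 and 3, against 4935, 3918 and 5866 in saline 3, 4 and 5, a log2 fold change of 1.25 ± 0.40 (limma adjusted p = 0.488). Lrig1, which promotes the turnover of EGF receptors, had 896, 1471 and 3019 in CNO 1, 2 and 3, against 532, 451 and 269.8 in saline 3, 4 and 5. Neither overlapped between the groups.

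Of the 10 other transcripts that ERK induces, 9 were tested, 1 had a log2 fold change above 0 and the median was -0.42. Plaur, the urokinase receptor, had 0, 2.22 and 0.970 normalized counts in CNO 1, 2 and 3, against 165, 638 and 90.6 in saline 3, 4 and 5 (limma adjusted p = 0.488, DESeq2 adjusted p = 9.67e-05). Myc had 16.9, 28.1 and 471 in CNO 1, 2 and 3, against 368, 227 and 123 in saline 3, 4 and 5. Egr1, an immediate early factor and the most abundant of this list per kilobase, had 32075, 9889 and 34238 in CNO 1, 2 and 3, against 27431, 40414 and 25699.8 in saline 3, 4 and 5 (log2 fold change -0.46 ± 0.44, limma adjusted p = 0.699).

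**Figure D5:**
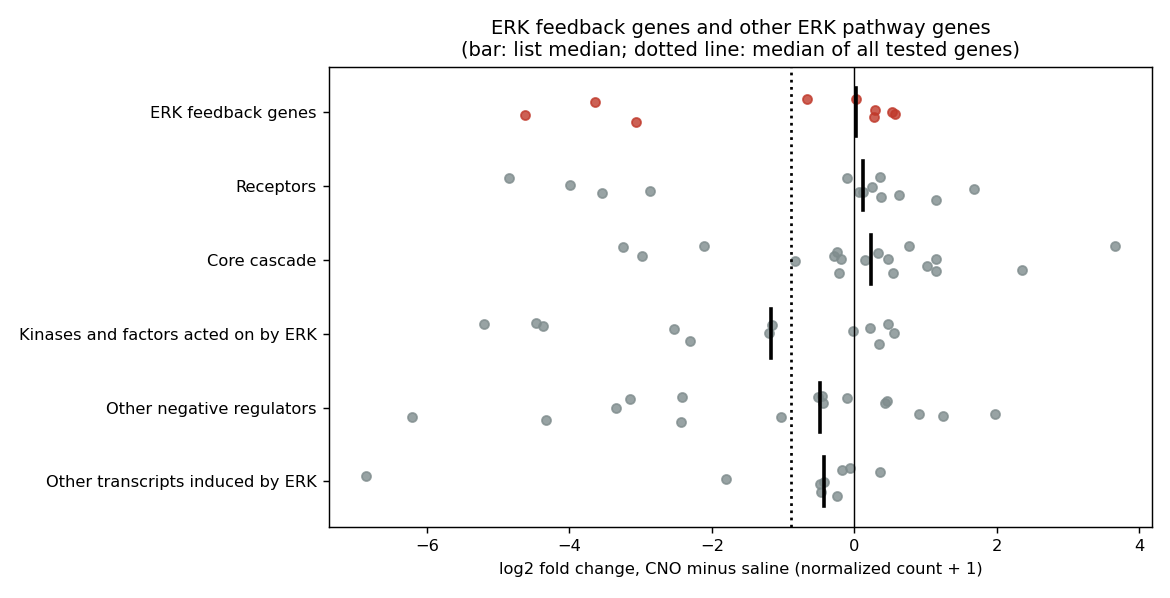
Log2 fold change, CNO minus saline, of the 9 tested ERK feedback genes (red, top row) and of 68 other tested ERK pathway genes by role (grey), with each list's median as a black bar and the median of all tested genes, -0.89, as a dotted line. List medians run from -1.17 for kinases and factors acted on by ERK to 0.24 for the core cascade, and points are spread vertically at random within a row.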

How the data were processed

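RNA-seq of 6 libraries was analysed, 3 CNO and 3 saline. The submitters' processing notes name STAR 2.5.0a, Trimmomatic 0.4, DESeq2 1.20.0, FastQC 0.10.1 and MultiQC 0.9, without their roles, and build mm10. How reads were counted, on which annotation and with which strand setting is not given in the sources used here. The deposited values are a signal, gene read counts that the authors scaled by a size factor. All values (100%) of a library were whole multiples of 1 step (tolerance 1e-06 reads), which gave the reads back.

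Each gene was tested with limma 3.58.1 in R 4.3.3 on log2(normalized count + 1), with a variance trend, 2-sided, Benjamini-Hochberg over 13028 genes, those whose mean reached 10. Fold changes are differences of mean log2 values on that scale, which for genes at 0 in some libraries can exceed those from the ratio of means or the count models. edgeR 4.0.16, DESeq2 1.42.0 and limma-voom ran on the recovered reads. The labels do not name separate animals, so p-values cover the spread among these libraries, which may be technical. Coordinates and exon lengths are GENCODE M21 (GRCm38, the assembly of mm10), and promoters matched 8 of 10 genes by symbol. Intervals of shares are exact Clopper-Pearson at 95%. The genes and lists were chosen with earlier results of these data known. From each pathway list, the 3 genes with the smallest p and the most abundant per kilobase were named. Figures used matplotlib 3.10.9.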

Additional observations from a re-analysis of the deposited data

How the results depend on the processing

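None of the 10 genes passed under any of the 21 alternatives, with adjusted p from 0.135 (Etv4 without CNO replicate 2) to 1. No paired analysis was possible because the groups share 1 replicate number. Over all genes, 2 calls (2 higher, 0 lower) became 0 (0 higher) with a mean filter of 50, genes read in every library, quantile scaling, no variance trend, edgeR, and any 1 library left out (0 to 0 calls, 0 to 0 higher). They became 11 (11 higher) with array weights, 16 (16 higher) with limma-voom, 16 (13 higher, 3 lower) in edgeR without the filter, 242 (66 higher, 176 lower) in DESeq2 and 559 (77 higher, 482 lower) in DESeq2 without the filter. Other ERK pathway genes called went from 0 to 4 in DESeq2 with and without the filter. Signs turned with quantile scaling for Dusp1 (-0.19), Spred1 (-0.13) and Etv5 (-0.018), which moved the median of all genes from -0.89 to -0.08. For Spry2 they turned with TMM scaling (-0.095), limma-voom (-0.31) and edgeR with (-0.064) and without the filter (-0.0037), and for Spry4 with a pseudocount of 0.5 (-0.019) and limma-voom (-0.15). With 1 library left out, Spry2 ran from -0.43 to 0.84 and Spry4 from -1.29 to 2.98. The cause was not tested. Dusp6, Spry1, Spred2 and Etv4 stayed below 0 in all alternatives that tested them. The Xist covariate, DESeq2 without the filter and the family shares were added after the data were seen. Depth limits CNO 1 most.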
